A study of Mus musculus with 4 samples.

Results

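The genes described here encode the 4 transcription factors of the classic reprogramming mix: Pou5f1 (the gene of Oct4), Sox2, Klf4 and Myc. Their CpGs were taken from windows that hold each gene and 5 kb on either side, on the mm9 mouse genome build: chr17:35637900-35652800 for Pou5f1, chr3:34543900-34556400 for Sox2, chr4:55535000-55550400 for Klf4 and chr15:61811800-61827000 for Myc. A CpG was used when at least 10 reads covered it in each of the 4 libraries, which left 281 CpGs of the 1045368 that passed the same minimum in the whole series. Of these, 21 lay in the Pou5f1 window, 79 in the Sox2 window, 113 in the Klf4 window and 68 in the Myc window. A further 249 CpGs were listed in these windows in at least 1 library and missed the minimum.

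The assay was reduced representation bisulfite sequencing (RRBS), in which genomic DNA is cut with MspI at CCGG, fragments of 40 to 220 bp are kept, and bisulfite turns unmethylated cytosines into uracil. The cells were secondary mouse embryonic fibroblasts (MEFs), a fibroblast culture in which added, drug-inducible copies of the reprogramming factors are already present in the cells, from a 129/SvJ x C57/B6 hybrid strain. The control group was left uninduced. The other 3 groups had been in doxycycline for 96 h and were separated by their average number of divisions in that time, given as 0, 1 and >3 (the text for the last group says 3 or more), and their libraries are named by that number. Where 4 values follow each other without names, they stand in the order control, 0, 1 and >3 divisions. Growth medium held 10% serum, the doxycycline medium 15%, and a starvation medium 0.5%; which cohort received the last is not stated. Every group, the control included, carries the inducible copies. The labels do not list which factors they encode, and reads of such copies in the coding sequence of a member gene cannot be told apart from reads of the gene itself. Each group had 1 library, so every test below compares 2 libraries and not the conditions, and no spread between cultures can be given.

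Pou5f1 and Sox2 bind DNA together and hold the pluripotent state of embryonic stem cells, Klf4 is a zinc finger factor that works beside them, and Myc drives growth and division. Fibroblasts normally express Klf4 and Myc, whereas Pou5f1 and Sox2 are silent in them. Methylation of a promoter can go with stable silencing, and the Pou5f1 promoter is a known case: it is methylated in fibroblasts and loses that methylation in reprogrammed cells. Promoters of CpG islands, such as those of Sox2, Klf4 and Myc, are generally unmethylated whether or not the gene is active.

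The promoter sequences show how differently the genes are built, and so where methylation can be measured. The set of RefSeq promoters at hand had sequences of 300 bases (250 before to 50 after the gene start, build GRCm38.p6) for 3 of the 4 genes, without Myc. The listed mm9 CpGs were laid on these sequences by their spacing alone: 6 of 6 listed CpGs fell on a CG in Pou5f1, 21 of 21 in Sox2 and 26 of 26 in Klf4. For Pou5f1 the set also holds a second promoter, chr17:35508557-35508856 with 6 CGs, which could not be placed and is not shown. Each line runs 5′ to 3′ along the gene's strand, and capitals mark the CGs that passed the coverage minimum.
Pou5f1, chr17:35505782-35506081, plus strand: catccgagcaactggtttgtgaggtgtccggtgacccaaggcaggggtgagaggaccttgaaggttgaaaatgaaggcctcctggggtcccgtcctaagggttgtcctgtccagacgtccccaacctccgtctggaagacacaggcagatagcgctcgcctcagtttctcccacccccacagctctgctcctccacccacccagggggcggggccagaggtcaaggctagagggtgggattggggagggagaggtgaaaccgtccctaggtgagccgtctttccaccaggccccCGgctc
Sox2, chr3:34649745-34650044, plus strand: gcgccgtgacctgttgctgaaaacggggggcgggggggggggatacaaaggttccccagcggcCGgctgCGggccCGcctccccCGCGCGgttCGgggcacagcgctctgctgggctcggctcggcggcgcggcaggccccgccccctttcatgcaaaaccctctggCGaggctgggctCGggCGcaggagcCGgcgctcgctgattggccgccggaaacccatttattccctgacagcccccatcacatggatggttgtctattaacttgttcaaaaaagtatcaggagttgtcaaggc
Klf4, chr4:55532426-55532725, minus strand: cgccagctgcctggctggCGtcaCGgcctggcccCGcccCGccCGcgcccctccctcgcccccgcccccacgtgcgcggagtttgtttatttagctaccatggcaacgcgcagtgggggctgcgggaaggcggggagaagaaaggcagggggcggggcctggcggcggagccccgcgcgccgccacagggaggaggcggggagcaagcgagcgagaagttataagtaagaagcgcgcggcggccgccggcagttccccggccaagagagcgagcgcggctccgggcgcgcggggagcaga
The Pou5f1 stretch holds 11 CGs, the Sox2 stretch 27 and the Klf4 stretch 40. The MspI site, CCGG (read the same on both strands), occurs 2 times in Pou5f1 and 3 times each in Sox2 and Klf4; 52.8% of 32851 RefSeq promoters of that length hold it. The letters GGGCGG, the core of an Sp1 motif, searched on both strands, occur 1 time in Pou5f1, 2 times in Sox2 and 4 times in Klf4, and are in 35.7% of those promoters.

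On these sequences the libraries gave 1 methylated and 2 nearly unmethylated promoters. The 1 measured CpG of the Pou5f1 promoter, 44 bp past the start, lies in a CCGG site. (All later distances count from the rounded gene start of each window, from which this CpG lies 120 bp.) It was methylated in 61.7% of 47 reads in control, 64.3% of 42 after 0 divisions, 48.8% of 41 after 1 and 33.3% of 27 after >3. The 11 measured CpGs of the Sox2 promoter together were at 1.36% (663 reads), 2.26% (663 reads), 2.56% (743 reads) and 1.04% (672 reads), in the same order. No methylated read was seen at the 5 measured CpGs of the Klf4 promoter in control (215 reads, which allows up to 1.40%), after 0 divisions (161 reads, up to 1.86%) or after 1 (196 reads, up to 1.53%), and 1 of 358 reads was methylated in the >3-division library. A level between the extremes is a mean over cells and over both alleles, so fewer methylated cells and fewer methylated alleles per cell cannot be told apart.

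The median depth was alike between the libraries in the series as a whole, but not at CpGs of a given control level. The median depth ratio of the >3-division library to control was 1.57 at CpGs under 20% in control and 0.659 at 80% or more. The tables listed between 1734328 and 1807769 CpGs with between 84606824 and 94775128 reads over them, and the median coverage of the CpGs tested was 58 to 61 reads. At the 281 CpGs it was 55, 54, 52 and 67 reads. The mean level over all CpGs tested was 42.4%, 42.7%, 42.5% and 38.8%. Over the 281 CpGs it was 10.8%, 12.1%, 10.8% and 8.21%, and both means were lowest in the >3-division library. The windows of Sox2, Klf4 and Myc are thus poor in methylation in every library. The Pou5f1 window is not: its mean of 58.1%, 58.5%, 53.7% and 49.6% lay above that of all CpGs tested in each library.

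**Figure D1:**
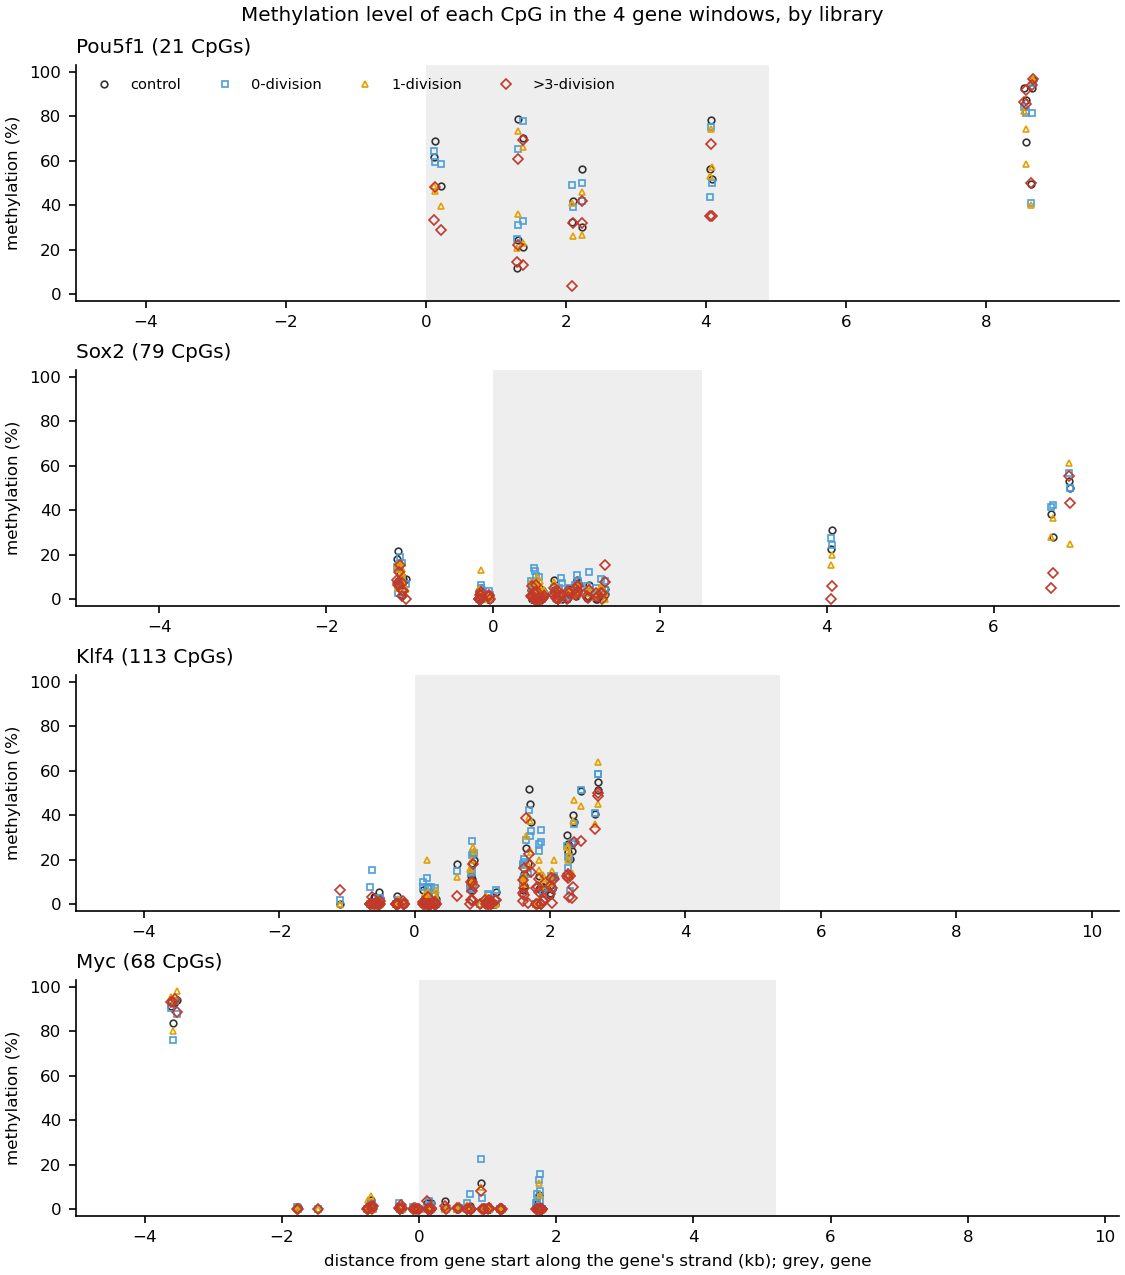
Methylation level (%) of each CpG with at least 10 reads in all 4 libraries against its distance from the gene start along the gene's strand (kb), 1 panel a gene, with 1 symbol per library and the gene shaded grey. Pou5f1 CpGs lie between 3.45% and 97.0%, the CpGs near the Sox2, Klf4 and Myc starts lie near 0, and levels in Klf4 climb from the start into the gene.

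A CpG was called changed when Fisher's exact test (two-sided), run on its methylated and unmethylated reads, passed an adjusted p of 0.05 (Benjamini-Hochberg over all 1045368 CpGs) with a difference of at least 20 percentage points. Neighbouring CpGs at most 100 bp apart were also summed into clusters of at least 3 CpGs, called at a difference of at least 10 points with p adjusted over 99566 clusters. Of those, 26 lay in the windows (4 in Pou5f1, 5 in Sox2, 8 in Klf4 and 9 in Myc). No member was called in the 0-division library against control. Among all CpGs tested, 0.00631% were lower and 0.00450% higher there, and 0.376% of clusters lower and 0.395% higher. In the 1-division library 0 members were called as well, beside 0.00153% of all CpGs lower and 0.00220% higher, and 0.132% of all clusters lower and 0.215% higher. At an unadjusted p under 0.05, Fisher's exact test gave 12 CpGs and 8 clusters in the first comparison and 6 CpGs and 4 clusters in the second. For CpGs that is 4.27% and 2.14% of the members beside 3.79% and 3.50% of the whole table, and for clusters 30.8% and 15.4% beside 15.5% and 10.1%. Between the >3-division library and control, 5 CpGs (1 in Sox2 and 4 in Klf4) and 3 clusters (2 in Pou5f1 and 1 in Klf4) were called lower, beside 3.05% of all CpGs and 11.0% of all clusters. That is 5 of 281 and 3 of 26, a share below that of the whole table for CpGs and near it for clusters. None was called higher (0.0865% and 0.577% of all). Between the >3-division and the 0-division library 6 CpGs and 3 clusters were lower, beside 3.22% and 11.2% of all, and none higher (0.0888% and 0.614%). These comparisons share the >3-division library.

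Pou5f1 was the most methylated of the 4 windows and, with equal weight for each CpG, the one with the largest mean difference. The mean over its 21 CpGs was 58.1% in control, 58.5% after 0 divisions, 53.7% after 1 and 49.6% after >3, a difference of -8.50 points between the last and the control, beside -3.62 points over all CpGs tested. These sets are unlike in level. At the 16 Pou5f1 CpGs of 20 to 80% in control the mean difference was -10.9 points, beside -7.89 points over all CpGs of that class. With reads pooled over CpGs that order did not hold: the differences were -2.66 points in Pou5f1, -1.32 in Sox2, -5.17 in Klf4 and -2.66 in Myc. The pooled level of all CpGs tested was 42.7% in control and 25.6% after >3 divisions. A pooled level also moves when reads shift between CpGs of low and high level. From control to >3 divisions, Pou5f1 reads went from 1102 to 907 inside the gene and from 349 to 531 downstream. In Myc they went from 240 to 168 in the methylated upstream cluster and from 4472 to 6515 in the window. The part of such shifts in the pooled differences was not tested. The equal-weight difference of Pou5f1 lay inside the gene. Its 15 CpGs had mean levels of 48.8%, 50.8%, 45.2% and 35.8%, and 13 of the 15 were lower in the >3-division library than in control and 15 of 15 lower than in the 0-division library. The 6 CpGs downstream of the gene went the other way, at 81.2%, 77.5%, 74.9% and 84.1%. No CpG upstream of the gene passed the coverage minimum.

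The start of Pou5f1 was the most strongly lowered cluster of the gene in points. Its 3 CpGs, chr17:35643020-35643120, begin with the CpG of the promoter printed above. The cluster had a level of 60.1% in control (83 of 138 reads, 95% Wilson interval 51.8 to 67.9), 60.8% after 0 divisions (76 of 125), 44.7% after 1 (59 of 132) and 35.4% after >3 (35 of 99, interval 26.6 to 45.2). The control and 0-division levels were nearly equal, and the >3-division interval did not reach either. The level fell by 24.8 points between control and the >3-division library (adjusted exact p = 0.00224) and by 25.4 points from the 0-division library (adjusted exact p = 0.00129). The call against control is lost when the reads are scaled down by the excess spread between the control and 1-division libraries (overdispersion) (adjusted exact p = 0.0628). The first of the 3 CpGs lies in CCGG, and at 127 promoter CpGs in that site, at 20 to 80% in control, the mean difference of the >3-division library from control was -17.6 points, beside -8.38 points at 483 outside it; the part of the site in this cluster was not tested. All 3 CpGs had lower levels in the >3-division library than in control, and none passed alone.

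Further into Pou5f1 the levels were mixed. The cluster of 5 CpGs at 1300 to 1388 bp past the start had 41.6%, 47.8%, 43.8% and 36.3% over 498 to 592 reads a library. It fell by 11.5 points between the 0-division and the >3-division library (adjusted exact p = 0.00129), a call lost at equal depth, where the difference is -9.84 points and so under the 10 required. Its difference from control was -5.26 points (adjusted exact p = 0.206). Within it high and low CpGs alternated in every library. The CpG at 1300 bp had 11.6%, 21 methylated of 84 reads, 20.7% and 14.3%, and the one 9 bp further had 78.9%, 65.1%, 73.3% and 61.0%. The CpG at 1385 bp had 70.1%, 77.9%, 66.1% and 69.2%, and its neighbour 3 bp on had 21.3%, 32.8%, 23.1% and 12.9%. In control 4 of 12 pairs of neighbouring Pou5f1 CpGs at most 30 bp apart differed by at least 40 points, and in each doxycycline library 3 of 12 did. Over the 635824 such pairs of the whole table the share was between 1.40% and 2.35% in the 4 libraries, and no pair in the other 3 windows differed as much. These pairs were counted after their values were seen.

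The largest single fall in Pou5f1 lay 2094 bp past the start, at chr17:35644994. Its level was 32.3% in control (31 reads), 48.9% after 0 divisions (47 reads), 41.0% after 1 (39 reads) and 3.45% after >3 (29 reads, interval 0.611 to 17.2). It fell by 45.5 points from the 0-division library (adjusted exact p = 0.0014), and its difference from control was -28.8 points (adjusted exact p = 0.112). The next CpG, 10 bp away, had 41.9%, 39.1%, 26.3% and 31.8%, so the low level in the >3-division library was not shared by its neighbour. The cluster of 3 CpGs at 4055 to 4085 bp, near the end of the gene, had 62.2%, 56.2%, 61.5% and 45.9%. It fell by 16.2 points against control (adjusted exact p = 0.0474), a call that is lost at a cluster gap of 50 bp (adjusted exact p = 0.0606), with the overdispersion (adjusted exact p = 0.209) and at equal depth (adjusted exact p = 0.156). Downstream, the cluster of 6 CpGs at 8548 to 8673 bp had 68.5%, 68.8%, 61.9% and 71.9% and passed no test. The largest rise in the window lay there, at chr17:35651468, with 68.3%, 82.3%, 74.5% and 92.0% (23.7 points against control, adjusted exact p = 0.113).

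The Pou5f1 gene had fewer reads in the >3-division library than in control. The median over CpGs of the depth ratio between the >3-division and the control library was 0.710 inside the gene and 0.574 within 1 kb of its start, whereas it was 1.36 downstream and 1.09 over all CpGs tested. Over all CpGs tested the ratio also went with the control level: it was 1.57 at CpGs under 20% methylated in control, 0.833 at 20 to 80% and 0.659 at 80% or more. The part of this depth in the Pou5f1 levels was not tested beyond thinning all libraries to equal depth, at which the cluster at the start was still called in both comparisons, while the clusters at 1300 to 1388 bp and at 4055 to 4085 bp were not called.

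**Figure D2:**
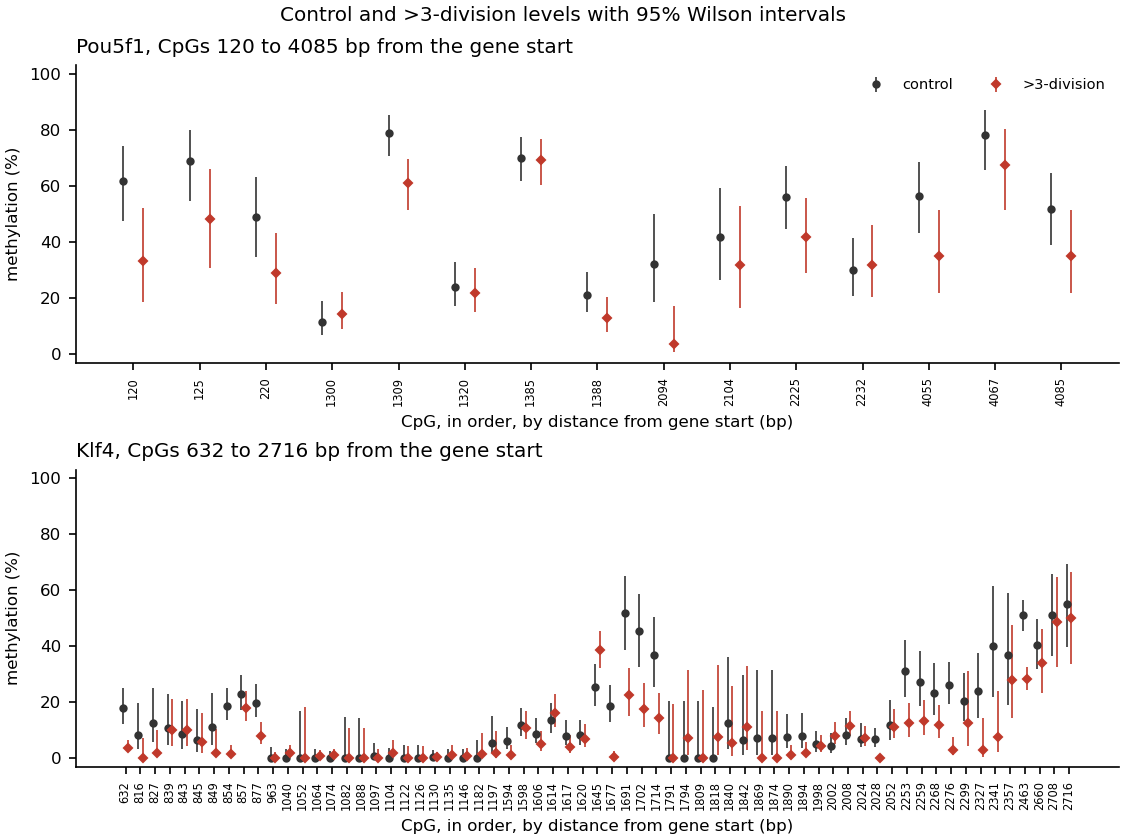
Methylation level (%) of single CpGs in control and in the >3-division library with 95% Wilson intervals (bars), in order of distance from the gene start (bp, not to scale), for Pou5f1 at 120 to 4085 bp and Klf4 at 632 to 2716 bp. In Pou5f1 13 of 15 CpGs lie lower in the >3-division library, and in Klf4 single CpGs such as the one at 854 bp drop to 1.64% beside a neighbour at 18.1%.

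Sox2 was unmethylated around its start in every library, and its called changes lay kilobases downstream. The 49 CpGs within 1 kb of the start had mean levels of 1.74%, 3.41%, 3.45% and 1.47%. The cluster just before the start holds the promoter CpGs printed above. The 3 clusters inside the gene had pooled levels between 1.26% and 4.56% in all 4 libraries. The one at 1125 to 1347 bp had 1.39%, 4.56%, 3.12% and 1.93%; its difference of 3.17 points between the 0-division library and control had an adjusted exact p of 0.0137 and was under the 10 points required. Sox2 has a single exon, so these clusters can lie in sequence that inducible copies share; whether they do was not tested. The cluster at 1149 to 1042 bp upstream was the most methylated near the start, with 8.98%, 10.3%, 11.4% and 6.28%.

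The 6 CpGs downstream of Sox2 had mean levels of 37.2%, 40.3%, 31.0% and 20.2%, and 6 of 6 were lower in the >3-division than in the 0-division library. At chr3:34555587, 6687 bp past the start, the level was 38.5% in control (52 reads), 41.3% after 0 divisions (75 reads), 27.9% after 1 (43 reads) and 4.84% after >3 (62 reads, interval 1.66 to 13.3). The >3-division interval lay below those of the other 3. It fell by 33.6 points against control (adjusted exact p = 0.00073) and by 36.5 points against the 0-division library (adjusted exact p = 3.66e-05). The CpG 24 bp on, chr3:34555611, had 28.1%, 42.2%, 36.4% and 11.8%; it fell by 30.4 points from the 0-division library (adjusted exact p = 0.00103), and its difference from control was -16.4 points (adjusted exact p = 0.309). At chr3:34552956, 4056 bp past the start, the levels were 22.5%, 27.5%, 15.4% and 0 of 34 reads, which allows up to 8.82%. It fell by 27.5 points from the 0-division library (adjusted exact p = 0.0196), a call lost with the overdispersion (adjusted exact p = 0.077) and at equal depth (adjusted exact p = 0.085). The last pair, 6906 and 6912 bp past the start, showed no such drop: 53.3%, 56.7%, 61.1% and 55.6% at the first, and 15 methylated of 30 reads, 15 of 30, 4 of 16 and 43.4% at the second. The largest rise in the window, at chr3:34550242 inside the gene, was 4.65%, 8.33%, 0% and 15.4% (10.7 points against control, adjusted exact p = 0.758).

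Klf4 had an unmethylated start and a body of mostly low methylation, with 17 of the 87 CpGs inside the gene at 20 to 80% in control. Of the 5 single CpGs called lower against control, 4 were in that body. Klf4 also holds the most CpGs of the windows. Its 4 of 113 is near the 3.05% called lower among all CpGs tested. The 26 CpGs upstream had mean levels of 0.831%, 1.45%, 0.231% and 0.473%, and the 87 CpGs inside the gene 10.7%, 12.4%, 11.0% and 6.30%. Of the latter, 49 were lower and 18 higher in the >3-division library than in control. The last CpG measured in the gene lay 2716 bp past the start, and none downstream passed the coverage minimum. The pooled level climbed with distance in control: 1.02% at 117 to 314 bp, 6.28% at 816 to 1197 bp, 14.4% at 1594 to 1894 bp, 26.5% at 2253 to 2357 bp and 45.6% at 2660 to 2716 bp. The cluster at 1998 to 2052 bp, at 6.90%, broke that order. The >3-division library was lower in each of these, with 0.188%, 2.96%, 10.3%, 10.4% and 41.7% in the same order.

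The cluster of 8 CpGs at 2253 to 2357 bp, chr4:55543043-55543147, was the 1 called in Klf4. It had 26.5% in control (529 reads, interval 22.9 to 30.4), 21.6% after 0 divisions (626 reads), 22.8% after 1 (636 reads) and 10.4% after >3 (599 reads, interval 8.16 to 13.0). The first 3 libraries lay within 5 points of each other and the last lay apart. The level fell by 16.1 points against control (adjusted exact p = 1.6e-10) and by 11.2 points against the 0-division library (adjusted exact p = 1.85e-06). The cluster nearest the end of the measured stretch, at 45.6%, 49.6%, 43.8% and 41.7%, passed no test. Smaller differences passed on p alone. The cluster at 816 to 1197 bp had a difference of -3.31 points from control (adjusted exact p = 7.13e-07). The one at 117 to 314 bp had a difference of -0.837 points from control (adjusted exact p = 0.0371). The one at 1594 to 1894 bp had 14.4%, 19.5%, 14.2% and 10.3%, which is 5.10 points in the 0-division library against control (adjusted exact p = 0.00642). Its >3-division level differed by -4.07 points from control (adjusted exact p = 0.00208) and by -9.17 points from the 0-division library (adjusted exact p = 3.62e-13). The clusters at 117 to 314, 816 to 1197 and 1998 to 2052 bp passed against the 0-division library too, at -2.78, -4.34 and -4.13 points. The one at 1998 to 2052 bp had 6.90%, 10.4%, 13.0% and 6.31%, which is 6.06 points in the 1-division library (adjusted exact p = 0.00828).

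The deepest CpG of the Klf4 gene in all but the 1-division library, chr4:55542937 at 2463 bp, was also its firmest single result. Its level was 51.0% in control (300 reads), 51.6% after 0 divisions (312 reads), 44.1% after 1 (247 reads) and 28.3% after >3 (498 reads). It fell by 22.7 points against control (adjusted exact p = 5.85e-08) and by 23.3 points against the 0-division library (adjusted exact p = 1.38e-08). At chr4:55543124, 2276 bp past the start, the levels were 26.2%, 20.7%, 22.5% and 3.01%, a fall of 23.2 points against control (adjusted exact p = 8.83e-06). It is the CpG of the called cluster with the most reads in control (126). The CpG 8 bp nearer the start had 23.4%, 21.3%, 25.6% and 11.9%. At chr4:55543709 and chr4:55543698, 1691 and 1702 bp past the start, control had 51.9% and 45.3% and the >3-division library 22.5% and 17.8%. Both were called against control (adjusted exact p = 0.0164 and 0.0275), and both calls are lost with the overdispersion (adjusted exact p = 0.0664 and 0.0552), the second at equal depth too (adjusted exact p = 0.163).

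Klf4 CpGs a few bases apart went different ways in the >3-division library. At chr4:55544546, 854 bp past the start, the level was 18.7%, 22.3%, 19.6% and 1.64% (183 reads in the last); it fell by 20.7 points from the 0-division library (adjusted exact p = 1.71e-07). The CpG 3 bp on, covered by 188 reads, had 22.8%, 23.2%, 25.6% and 18.1%. At 1677 bp the level was 18.6%, 13.7%, 17.4% and 0.481%, while 32 bp nearer the start, at chr4:55543755, it was 25.4%, 28.7%, 30.6% and 38.8%, the largest rise in the window (13.4 points against control, adjusted exact p = 0.192). At 2028 bp it was 6.76%, 9.97%, 14.8% and 0.307%. The CpGs at 1677 and 2028 bp and the neighbours named here were picked after their values were seen. The largest fall in points, at chr4:55543059, rested on 16 to 26 reads a library and did not pass: 40.0%, 28.0%, 37.5% and 7.69% (adjusted exact p = 0.186 against control). Depth rose in Klf4 where it dropped in Pou5f1: the median depth ratio of the >3-division library to control was 1.36 inside the gene and 1.92 upstream. The 2 windows differ in level, and the ratio went with the level in the whole table. At the 96 Klf4 CpGs under 20% in control it was 1.44, beside 1.57 over all CpGs of that class.

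Myc was nearly unmethylated over its start and the measured part of its gene and methylated far upstream, in all 4 libraries. The last CpG measured in the gene, chr15:61818595, lay 1795 bp past the start, and the gene runs to about chr15:61822000. No CpG downstream of the gene passed the coverage minimum. The 44 CpGs inside the gene had mean levels of 0.724%, 2.22%, 0.762% and 0.360%. The 39 CpGs within 1 kb of the start had 0.810%, 1.30%, 0.782% and 0.558%. The 7 clusters between 757 bp upstream and 1211 bp past the start were at or under 2.30% in every library. The one at 1179 to 1211 bp had 0 methylated reads throughout (258, 393, 221 and 388 reads, which allow up to 1.16%, 0.763%, 1.36% and 0.773%). In the one at 897 to 1025 bp the highest single CpG level was 12.0%, 22.6%, 10.0% and 8.33%. The 4 CpGs at 3622 to 3532 bp upstream stood at 91.2%, 88.3%, 93.4% and 92.3%. No Myc CpG or cluster was called in any of the 4 comparisons. The largest rise against control was at chr15:61813208, upstream, with 83.7%, 76.3%, 20 methylated of 25 reads and 93.1%, and the largest fall at chr15:61818549, with 6.25%, 13.2%, 11.8% and 0 of 23 reads (adjusted exact p = 1 for both).

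The last Myc cluster, 13 CpGs at 1702 to 1795 bp, stood out in the 0-division library alone. Its pooled levels were 0.445% in control (449 reads), 5.99% after 0 divisions (317 reads), 1.10% after 1 (364 reads) and 0 after >3 (350 reads, which allows up to 0.857%). The difference of 5.55 points between the 0-division library and control passed on p (adjusted exact p = 0.000465) but not on size. With equal weight for each CpG the levels were 0.673%, 4.17%, 1.39% and 0%. In the 0-division library the 19 methylated counts lay among its first 8 CpGs, with 27 to 38 reads each. Of these 8, chr15:61818562 had 0 of 30 reads methylated. The last 5 had 11 reads each and none methylated. Neighbouring CpGs share reads, so the 19 counts can rest on fewer molecules. Of the 22 Myc CpGs more than 1 kb past the start, 20 were at 0 in control and so could only stay or rise; 8 of the 22 were higher in the 0-division library.

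At lowly methylated CpGs the 0-division library was slightly higher than control in the windows and in the whole table alike. Of the 233 CpGs under 20% methylated in control, 106 were higher and 49 lower in the 0-division library, with a mean difference of 1.88 points. Over the 497916 CpGs of the same class tested, 217501 were higher and 113763 lower, with a mean difference of 1.08 points. A class picked for a low control level has more room to rise than to fall. Clusters passing the adjusted p without the size condition numbered 3 in the windows in this comparison (1 each in Sox2, Klf4 and Myc), all higher, beside 3.34% of all clusters that were higher and 0.868% lower on the same terms. The median depth ratio to control in this library was 0.861 at these 233 CpGs and 0.952 over that class; its part in the difference was not tested.

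**Figure D3:**
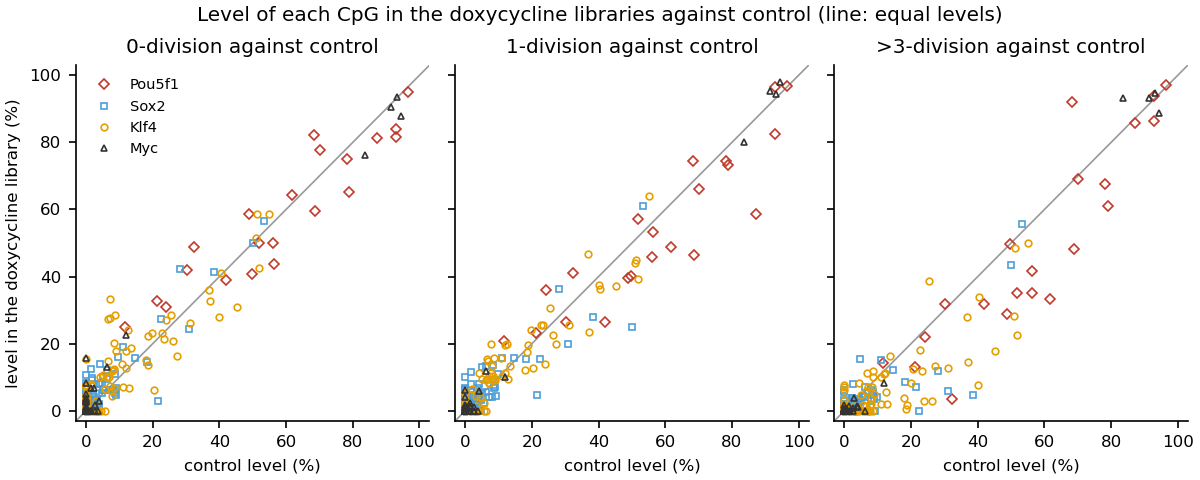
Methylation level (%) of each of the 281 CpGs after 0, 1 and >3 divisions (panels) against its control level (%), with a symbol for each gene and a grey line of equal levels. In the third panel most CpGs between 20 and 80% in control lie under the line (35 of 40), while those at 80% or more stay near it.

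Set beside CpGs of like level, the members of intermediate methylation lay on the lower side of the table. At control levels of 20 to 80%, 35 of 40 members were lower in the >3-division library, with a median difference of -14.4 points. Over the 190012 CpGs of that class in the table the median was -5.81 points and 65.2% were lower. The share called was close, at 12.5% of the members and 9.76% of the class. By gene the medians were -12.6 points at 16 Pou5f1 CpGs, -16.4 at 7 Sox2 CpGs and -13.8 at 17 Klf4 CpGs; Myc had none in this range. Neighbouring members share reads, so these counts are not independent observations, and the class is set by the control level that is also subtracted. Against the 0-division library, which did not set the class, the medians lay closer together, at -9.70 points for the 40 members and -7.06 points for the whole class. At 80% or more, 8 members (4 each in Pou5f1 and Myc) had a median difference of 0.812 points against -3.85 points over 357440 CpGs. Under 20%, the median was 0 for the 233 members and for the class.

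In the 1-division library the same 40 CpGs had a median difference from control of -5.62 points, with 28 of 40 lower. Over the class in the whole table the median was 1.78 points, with 42.3% lower. None of these members was called in that comparison, and the cluster at the Pou5f1 start, at 44.7% against 60.1%, is 1 part of this difference (-15.4 points, adjusted exact p = 0.315).

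**Figure D4:**
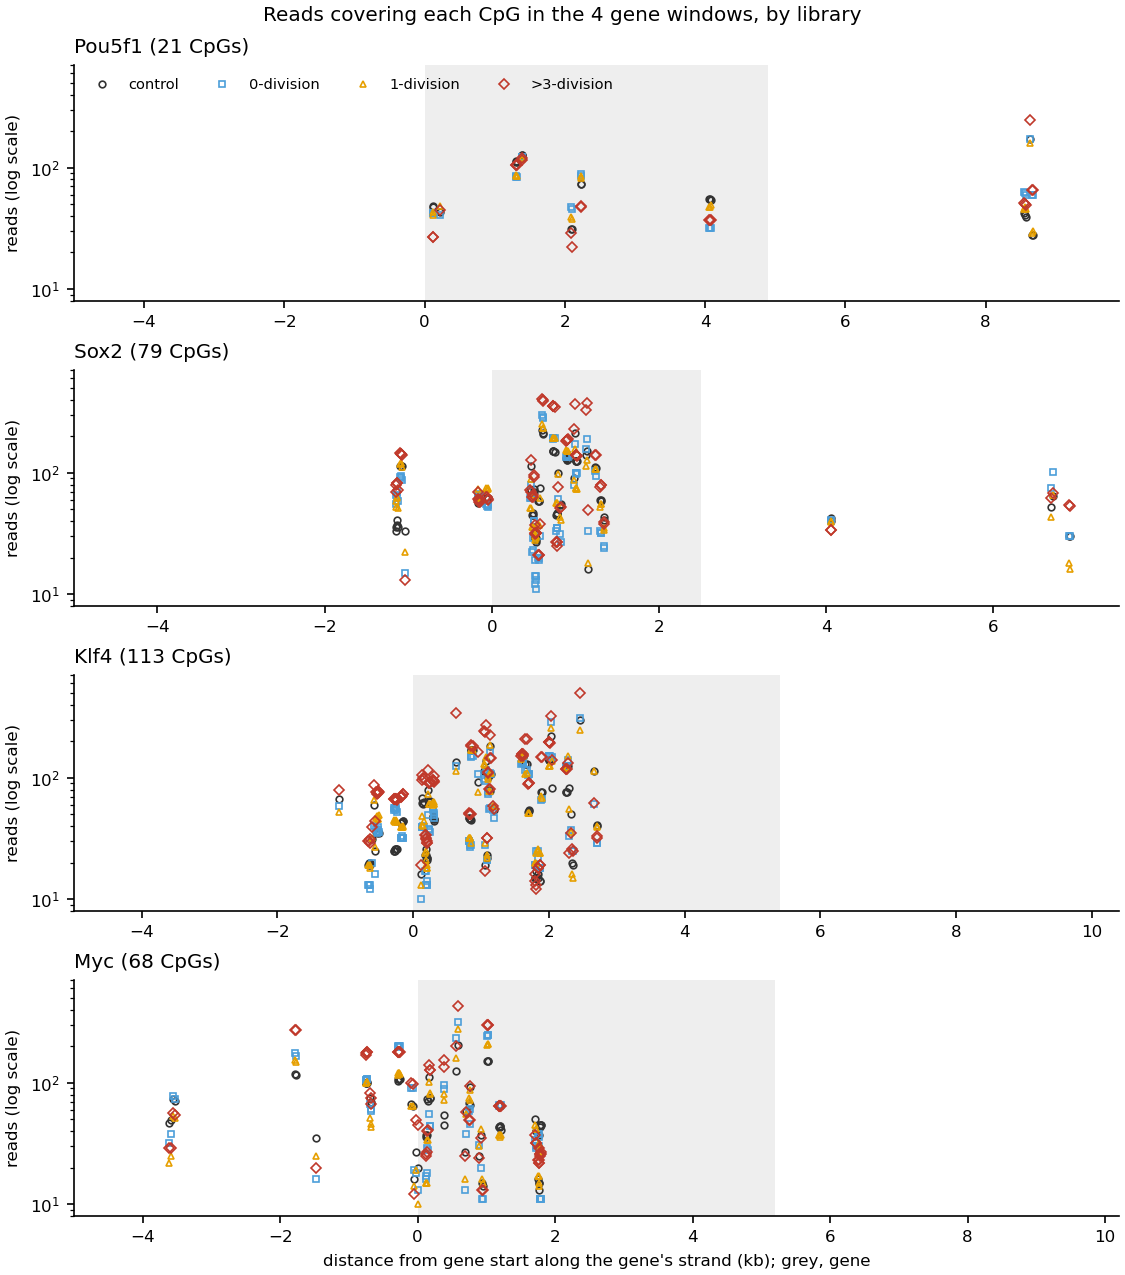
Reads covering each of the 281 CpGs (log scale) against distance from the gene start along the gene's strand (kb), 1 panel a gene, with 1 symbol per library and the gene shaded grey. CpGs of 1 restriction fragment share a depth and form short stacks, the >3-division library is often highest in Sox2, Klf4 and Myc, and it is lower than control over most of the Pou5f1 gene.

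Depth was read along the genes because inducible copies could add reads in coding sequence. In Sox2 the median coverage was 72, 40, 59 and 78 reads inside the gene, 60, 64, 63 and 63 upstream, and 41, 40.5, 39.5 and 53.5 downstream. In Klf4 it was 63, 54, 61 and 94 inside the gene and 33, 36, 43.5 and 68 upstream. In Myc it was 44, 37, 37 and 40.5 inside the gene and 87.5, 98, 81.5 and 135 upstream, and in Pou5f1 55, 47, 49 and 45 inside the gene against 40, 61, 46 and 58.5 downstream. Sox2 and Klf4 were thus covered more deeply in the gene than upstream in control and Myc less deeply. RRBS depth also follows fragment length and base composition, so the part of inducible copies in these levels was not tested. The calls downstream of Sox2 lie outside the gene.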

How the data were processed

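DNA methylation was measured by RRBS in 4 mouse fibroblast libraries, 1 per group. Per library, the authors deposited methylated and unmethylated read counts at each CpG (whole numbers joined by a slash, no header), on mm9 per the submitters' processing notes. Not given in the sources used here are the aligner, the methylation caller, the handling of filled-in fragment ends, and whether positions count from 0 or 1; positions are printed as deposited. No other value column was found (0). Levels are methylated reads over all reads, in percent, at CpGs with at least 10 reads in all 4 libraries (a median of 58 to 61 reads). PCR reads are not independent molecules, and neighbouring CpGs share reads, so intervals (95% Wilson) and the limit set by 0 reads (3 reads of the total) cover counting error only, and p-values are too small.

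Fisher's exact tests ran on the whole table in Python 3.11.15 with numpy 2.4.6, pandas 2.3.3, scipy 1.17.1 and numba 0.67.0, and were tested on simulated data; figures used matplotlib 3.10.9. Gene positions were taken from the windows, rounded, since no mm9 annotation was at hand; exons and other pathway genes were not used here. Promoters were placed by the spacing of their CGs, with no conversion of coordinates. Every cluster in a window, every CpG called and the largest rise and fall per gene were described. The genes, lists and thresholds were chosen with earlier results of these data known. Alternatives were coverage minimums of 5 and 20 reads, thinning to equal depth, dropping the CpGs of highest coverage (over the 99.9th percentile), other sizes of difference, cluster gaps of 50 and 200 bp, pooled reads, other windows, and read counts divided by the overdispersion between control and the 1-division library (1.21 for CpGs and 1.63 for clusters, Pearson chi-square per feature).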

Additional observations from a re-analysis of the deposited data

Results flagged for a closer look

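The 0-division and >3-division libraries were both set against control, and the difference between them was tested directly with Fisher's exact test at an adjusted p under 0.05. On that test alone the >3-division library was lower in 17 of 281 CpGs and 13 of 26 clusters of the windows. The shares lower on the same terms were 4.16% among all CpGs tested and 26.1% among all clusters. In 6 CpGs and 3 clusters the difference also reached the size required, 20 points for a CpG and 10 for a cluster, and these are given here. Since both comparisons share the control, the levels of the 0-division and >3-division libraries themselves are the values to look at.

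In Pou5f1 the single CpG 2094 bp past the start differed by -45.5 points (48.9% against 3.45%), with no like drop 10 bp away. The cluster at the start of the gene differed by -25.4 points (60.8% against 35.4%). The cluster at 1300 to 1388 bp differed by -11.5 points (47.8% against 36.3%).

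In Sox2 the 3 CpGs that met both conditions lay downstream of the gene. At 4056 bp past the start the difference was -27.5 points (27.5% against 0 of 34 reads), at 6687 bp it was -36.5 points (41.3% against 4.84%), and at 6711 bp it was -30.4 points (42.2% against 11.8%).

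In Klf4 the CpG at 2463 bp differed by -23.3 points (51.6% against 28.3%) and the CpG at 854 bp by -20.7 points (22.3% against 1.64%). The cluster at 2253 to 2357 bp differed by -11.2 points (21.6% against 10.4%). Myc had none that met both; its cluster at 1702 to 1795 bp passed the test at -5.99 points (adjusted p = 8.69e-06, Fisher's exact test).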

How the results depend on the processing

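No paired analysis was possible because each group had 1 library and the labels give no replicate numbers; for the same reason no library could be left out. Of 88 counts and means recomputed under an alternative, 71 stayed within counting error (means) or near the count reported, and 17 moved further; the counts of 0 in the 0-division and 1-division libraries stayed at 0 in each. The mean difference between the >3-division library and control depended on the part of the window. For Pou5f1 (-8.50 points) it was -5.29 at a minimum of 5 reads (within counting error), 2.90 in the flanks alone, -13.1 with 2 kb flanks and -2.66 with pooled reads. For Sox2 (-1.94) it was -5.54 in the flanks, for Klf4 (-3.44) -0.358 in the flanks and -5.17 with pooled reads, and for Myc (-0.172) -2.66 with pooled reads and, within counting error, -0.299 at a minimum of 5 reads and 0.180 in the flanks. The pooled values also depend on how reads spread over CpGs of low and high level. Against control, the 5 CpGs called became 10 at 10 points, 1 at 30 points and 3 with the overdispersion, and the 3 clusters became 1 at a gap of 50 bp, 1 at 20 points and 1 with the overdispersion. Against the 0-division library, the 6 CpGs became 15 at 10 points and 3 at 30 points, and the 3 clusters became 5 at a gap of 200 bp and 1 at 20 points. A smaller or larger size condition changes these counts by construction; the other causes were not tested. At a gap of 50 bp the cluster at the Pou5f1 start could not be formed, since fewer than 3 of its CpGs are joined. Of 118 recomputed values of single CpGs and clusters, 97 stayed on their side of the threshold, 21 lost their call and 0 turned in direction. Most alternatives change only the test, the size condition or the set of features, and leave the difference of a CpG or cluster as it was. Its direction could not turn there, so the count of 0 says little outside the thinning to equal depth. In the Pou5f1 gene a difference from control of -28.8 points at 1 CpG did not pass at its 31 and 29 reads.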

Other observations

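The low level of single CpGs beside higher neighbours in the >3-division library raised the question of whether the sequence around them differs. This was looked at only after the values were seen, at promoters, where RefSeq gives the sequence. By the spacing of their CGs 3837 RefSeq promoters could be placed on the listed CpGs (at least 8 listed CpGs, all on a CG, with any second placement matching far fewer), which gave 58458 tested CpGs, 10168 of them in CCGG, the MspI site. At control levels of 20 to 80%, 127 CpGs in CCGG had mean levels of 32.6% in control, 29.3% after 0 divisions, 29.0% after 1 and 15.0% after >3. The 483 CpGs outside CCGG had 36.3%, 34.8%, 33.2% and 27.9%. The mean difference between the >3-division library and control was thus -17.6 points in CCGG and -8.38 points outside it, and 87.4% and 69.8% of the CpGs were lower. In the 1-division library the mean differences were -3.56 and -3.12 points. MspI leaves fragment ends that are filled in at this site during library preparation; how the authors handled filled-in bases is not given in the sources used here, and their part in these levels, and in the lower level of the whole library, was not tested. At 80% or more the order was not the same, with -8.30 points at 13 CpGs in CCGG and -10.2 points at 51 others.

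Among the CpGs of the 4 genes, sequence was at hand for 17, of which 3 lay in CCGG: the Pou5f1 CpG at 120 bp past the rounded start (61.7% in control, 33.3% in the >3-division library) and 2 Sox2 CpGs under 2% in all 4 libraries. For the other CpGs of Pou5f1, for the CpGs downstream of Sox2 and for those inside Klf4 no sequence was at hand, so whether the CpGs that were lower there lie in CCGG was not tested.

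Over the whole table the share of neighbouring CpGs, at most 30 bp apart, whose levels differed by at least 40 points was 1.40% in control, 1.47% after 0 divisions, 1.46% after 1 and 2.35% after >3, while the median step was 1.85, 2.56, 1.82 and 1.33 points.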
